A study of Mus musculus with 28 samples.

Results

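The genes followed here act in NAD+ salvage, nicotinamide clearance and NAD+ consumption in mouse liver, and number 10: Nampt, Nmnat3, Nmrk1, Naprt, Nnmt, Aox1, Cd38, Bst1, Parp1 and Sarm1. They were taken by symbol from the count table, where all 10 were found among 49585 annotated features, and all 10 were among the 21583 genes that passed the filter on low counts. The libraries came from 28 mice of the C57BL/6JOlaHsd background aged 5 to 7 months, with 7 mice in each of 4 groups, WT and SIRT6-tg males and WT and SIRT6-tg females. SIRT6-tg mice overexpressed SIRT6 in the whole body, all were descended from 1 transgenic line, and WT mice were their littermates without the transgene; the promoter of this transgene is not given in the sources used here. All mice were fasted before the liver was taken, and bulk RNA of the organ was sequenced. The genotype was compared within each sex, the genotype effect was compared between the sexes, and males were compared with females within each genotype.

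NAD+ is the hydride carrier of central metabolism and also the substrate of sirtuins, poly-ADP-ribose polymerases and NAD+ glycohydrolases, which split it and release nicotinamide. Liver cells rebuild NAD+ from nicotinamide through nicotinamide mononucleotide (NMN), from nicotinic acid through the Preiss-Handler route, from nicotinamide riboside, and from tryptophan. Surplus nicotinamide leaves the liver after methylation by Nnmt and oxidation of the methylated product by aldehyde oxidase.

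Reads assigned to genes totalled 18758863 to 35393069 per library. Sirt6 was checked first. It ran from 44.8 to 85.9 normalized counts (median 73.3) in male WT mice and from 5263 to 9517 (median 7189) in male SIRT6-tg mice. In females it ran from 47.9 to 165 (median 67.1) in WT mice and from 434 to 1335 (median 785) in SIRT6-tg mice. Neither pair overlapped, so every library matched the genotype in its label, and the log2 fold change was 6.68 ± 0.30 (SE) in males against 3.39 ± 0.26 in females, with a difference between the sexes of 3.29 ± 0.35 (edgeR adjusted p = 6.96e-06). Reads of the endogenous gene and of the transgene were counted together. The 5 hepatocyte markers Alb, Apoa1, Ttr, Cps1 and Hnf4a summed to between 42790 and 84980 reads per kilobase of exon after scaling for depth (RPKM) over the 28 libraries, as the label liver implies.

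Levels were first ranked per exon length, in RPKM. Nnmt stood highest by median in every group, at 81.6 RPKM in male WT mice, followed by Naprt at 46.8 and Nampt at 17.5. The ranges of Nnmt and Naprt overlapped in all 4 groups, whereas Naprt lay wholly above Nampt in each. Aox1 (median 11.9), Nmrk1 (8.75), Parp1 (6.38) and Cd38 (5.88) formed a middle band in male WT mice in which neighbours overlapped. Nmnat3 came next at 1.58 RPKM, below every Cd38 value in all 4 groups. At the bottom, Bst1 (0.302) and Sarm1 (0.0693) were close to the limit of detection, with 1 to 43 and 1 to 17 reads per library, so their values carry a large counting error. In SIRT6-tg mice of both sexes the ranges of Bst1 and Sarm1 overlapped, whereas in WT mice of both sexes Bst1 lay above Sarm1.

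**Figure D1:**
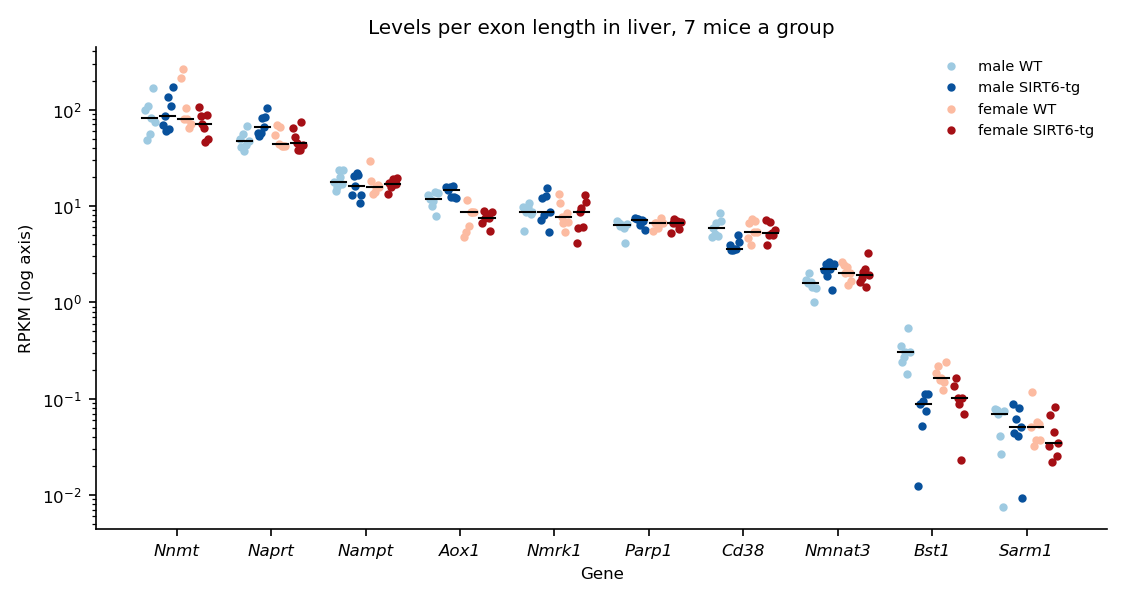
Level of each gene in every liver library, in RPKM on a log axis, with genes ordered by their median in male WT mice; each point is 1 mouse and the black line is the median of 7. Nnmt, Naprt and Nampt lead in all groups, and Bst1 and Sarm1 lie below 1 RPKM throughout.

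In males, 4 of the 10 genes differed between SIRT6-tg and WT mice at an adjusted p under 0.05, 2 higher (Naprt and Nmnat3) and 2 lower (Cd38 and Bst1). Over all 21583 genes tested, 4467 (20.7%) were called in males, 2090 (9.68%) higher and 2377 (11.0%) lower, so a share of 4 in 10 was set against a wide background. The median log2 fold change of the 10 genes was 0.15 in males, against 0.06 over all genes tested. In females, none of the 10 genes was called by edgeR or by DESeq2, Nnmt and Bst1 were the 2 at an unadjusted p below 0.05, and 6 of the 21583 genes were called (0.0278%). The interaction test, of genotype effects in males against those in females, called 1089 genes (5.05%) and none of the 10 by edgeR, although 4 were below 0.05 unadjusted and DESeq2 called 1, Cd38. The male calls are therefore not shown to be particular to males at the threshold used. Sirt6 itself rose more in males than in females (log2 fold change 6.68 against 3.39). Sex and the Sirt6 level thus cannot be told apart in the interaction test. Of the male calls, the 2 lower ones held under every scaling, while the 2 higher ones were lost with upper-quartile scaling and with library size alone, and that of Nmnat3 also with RLE size factors (adjusted p = 0.0605) and with each sex fitted separately (0.0501).

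**Figure D2:**
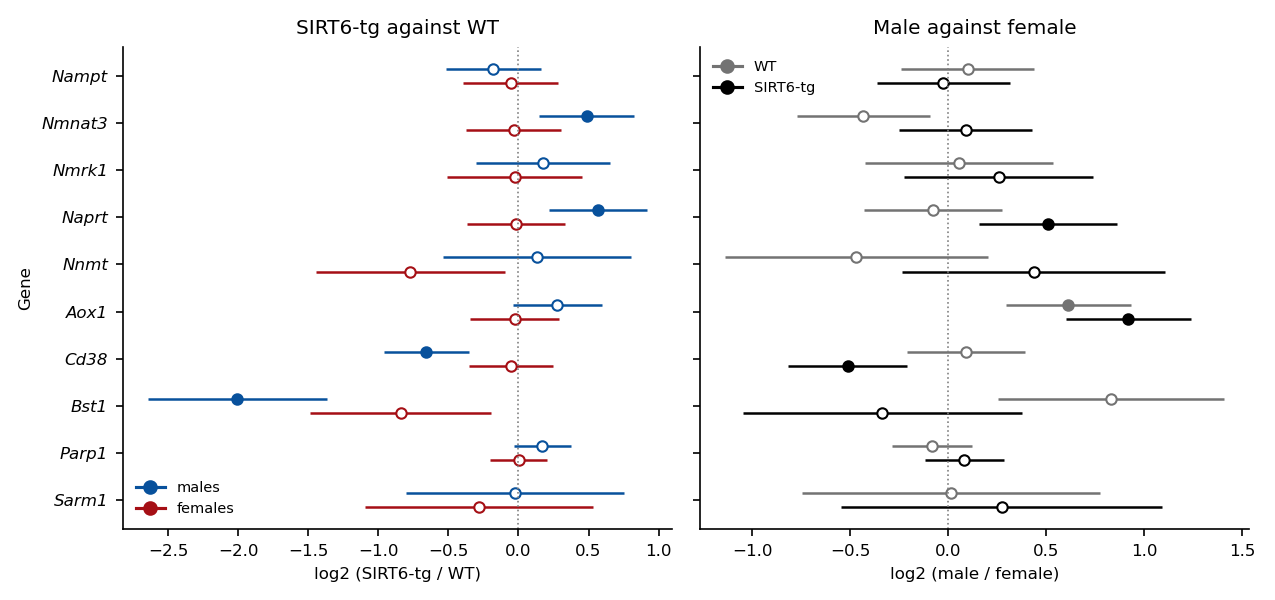
Log2 fold change of each gene with its 95% confidence interval from edgeR, SIRT6-tg over WT on the left and male over female on the right; filled points passed an adjusted p under 0.05. Bst1 in males lies farthest from 0, at -2.01, and no female point on the left is filled.

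Nampt makes NMN from nicotinamide and is the rate-limiting enzyme of salvage. Normalized counts ran from 1901 to 3191 (median 2349) in male WT and from 1450 to 2948 (median 2149) in male SIRT6-tg mice. The ranges overlapped widely, and the log2 fold change was -0.18 (95% CI -0.52 to 0.16, adjusted p = 0.502). With library size as the only scaling it was -0.46 and was called lower (adjusted p = 0.0477), in a fit where the median of all genes stood at -0.22. In females, counts ran from 1789 to 3945 (median 2125) in WT and from 1783 to 2632 (median 2248) in SIRT6-tg mice. The highest female WT mouse stood alone, with the other 6 at or below 2459, and the female change was -0.06 (95% CI -0.39 to 0.28).

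Nmnat3 is the mitochondrial enzyme that joins NMN to ATP to give NAD+. In males it ran from 133 to 270 normalized counts (median 211) in WT and from 176 to 344 (median 292) in SIRT6-tg mice. Of the male SIRT6-tg mice, 5 of 7 lay above every WT mouse. The log2 fold change was 0.49 ± 0.17 (SE), 1.40-fold, with an adjusted p of 0.0358. This call was close to the threshold: it was lost in 12 of the 28 fits that each left out 1 library (male WT mice 2, 4, 5, 6 and 7, male SIRT6-tg mice 1, 2, 4, 5 and 7, and female SIRT6-tg mice 3 and 7), in which the log2 fold change stayed between 0.41 and 0.57. Female WT mice ran from 199 to 346 (median 270) and female SIRT6-tg mice from 191 to 432 (median 256). They did not separate, with a log2 fold change of -0.04 (95% CI -0.37 to 0.30), and male WT mice had the lowest of the 4 medians.

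The promoters of Nmnat3 and Nampt are shown side by side, each as the 250 bases before the RefSeq transcription start in GRCm38.p6, both on the plus strand: chr9:98296320-98296569 for Nmnat3 and chr12:32820085-32820334 for Nampt. The changes of Nmnat3 and Nampt were not tested against each other. Both stretches lie inside the annotated span of their gene, which starts at 98287435 for Nmnat3 and at 32819545 for Nampt. Their overlap with exons was not checked. Capitals mark the GC box GGGCGG on either strand, the classical Sp1 motif.
Nmnat3: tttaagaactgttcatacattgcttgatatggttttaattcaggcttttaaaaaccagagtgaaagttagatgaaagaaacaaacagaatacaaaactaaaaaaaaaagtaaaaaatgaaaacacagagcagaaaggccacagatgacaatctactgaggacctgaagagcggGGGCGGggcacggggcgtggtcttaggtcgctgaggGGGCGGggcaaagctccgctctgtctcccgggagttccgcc
Nampt: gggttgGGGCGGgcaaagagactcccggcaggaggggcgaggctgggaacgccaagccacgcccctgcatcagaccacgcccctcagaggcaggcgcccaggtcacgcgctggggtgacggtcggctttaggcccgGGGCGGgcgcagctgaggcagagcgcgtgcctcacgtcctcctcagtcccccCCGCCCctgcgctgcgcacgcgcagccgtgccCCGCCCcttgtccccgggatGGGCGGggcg
The Nmnat3 stretch held 2 GC boxes and that of Nampt 5. Of 32851 such windows in the genome, 32.7% held at least 1. RefSeq windows were matched for 7 of the 10 genes (Naprt, Nnmt and Bst1 were not matched), and 5 of these 7 had a GC box, the exceptions being Cd38 and Nmrk1. The E-box CACGTG was found in 1, that of Parp1 (6.02% of all windows), and the gamma-activated site TTCNNNGAA in none (7.02% of all windows). The motifs do not overlap each other, and a match describes the letters only.

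Nmrk1 phosphorylates nicotinamide riboside to NMN. Counts ran from 534 to 1049 (median 857) in male WT and from 531 to 1490 (median 838) in male SIRT6-tg mice. The SIRT6-tg males spread more widely (coefficient of variation 35.3% against 19.2%) around a similar median, and the change was 0.18 (95% CI -0.30 to 0.65). Females ran from 523 to 1315 (median 745) in WT and from 405 to 1262 (median 843) in SIRT6-tg mice, which overlapped almost fully (change -0.03, 95% CI -0.51 to 0.45).

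Naprt makes nicotinic acid mononucleotide from nicotinic acid, the entry step of the Preiss-Handler route. Male WT mice ran from 2314 to 4179 normalized counts (median 2915) and male SIRT6-tg mice from 3323 to 6497 (median 4090). The ranges overlapped, and 3 of 7 SIRT6-tg males exceeded all WT males. The log2 fold change was 0.57 ± 0.17 (SE), 1.48-fold, adjusted p = 0.0175. The call was lost without male WT mouse 2 (adjusted p = 0.0505), male WT mouse 4 (0.0692) or male SIRT6-tg mouse 7 (0.064), while the direction was unchanged in all 28 fits that left out 1 library. Females were nearly the same in both genotypes, from 2579 to 4295 (median 2741) in WT and from 2351 to 4598 (median 2768) in SIRT6-tg mice, with a change of -0.02 (95% CI -0.37 to 0.33). Naprt shares 277 exon bases with its same-strand neighbour Eef1d, whose own log2 fold change in males was 0.38 (adjusted p = 0.159), and how reads in the shared part were assigned was not tested.

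Because WT and SIRT6-tg males differed in their TMM scaling factors (1.06 to 1.17 against 0.821 to 0.993), changes in males were also read relative to the median of all genes. That median was 0.06 with TMM, -0.02 with upper-quartile scaling and -0.22 with library size alone. Relative to it, Naprt was higher by 0.51, 0.50 and 0.48 and Nmnat3 by 0.43, 0.43 and 0.41 under the same 3 scalings. Cd38 stood at -0.71, -0.72 and -0.73 and Bst1 at -2.06, -2.07 and -2.08. A scaling shifts all genes by about the same amount, so these relative values are close to each other by construction and bear on neither of the 2 lost calls. The same choice shifted the calls over all genes in males, of which 46.8% were higher with TMM, 35.7% with RLE size factors, 26.2% with upper-quartile scaling and 4.89% with library size alone.

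Nnmt methylates nicotinamide and so withdraws it from salvage. It varied widely between mice, with coefficients of variation of 30.4 to 63.7% across the 4 groups. Males ran from 2034 to 6934 (median 3415) in WT and from 2507 to 7187 (median 3549) in SIRT6-tg mice, which overlapped almost fully (change 0.13, 95% CI -0.54 to 0.80, adjusted p = 0.832). Female WT mice ran from 2692 to 11043 (median 3353) and female SIRT6-tg mice from 1915 to 4486 (median 2984). Female WT mice 1 and 2 stood at 8851 and 11043 and the other 5 at no more than 4381. The female log2 fold change was -0.77 (95% CI -1.45 to -0.10, unadjusted p = 0.0261), with an adjusted p of 0.784.

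Aox1 oxidizes methylated nicotinamide to pyridones. Male WT mice ran from 1801 to 3219 normalized counts (median 2741) and male SIRT6-tg mice from 2778 to 3716 (median 3410). Among SIRT6-tg males 4 of 7 exceeded all WT males, but the change of 0.28 (95% CI -0.04 to 0.59) did not pass (adjusted p = 0.216). Females ran from 1103 to 2646 (median 1972) in WT and from 1256 to 2021 (median 1722) in SIRT6-tg mice. The female genotypes overlapped fully (change -0.03, 95% CI -0.34 to 0.29), and the clear contrast for Aox1 was between the sexes.

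Cd38 is a membrane NAD+ glycohydrolase and a main consumer of tissue NAD+, found on many immune cells and on some other cell types. In male WT mice it ran from 491 to 881 normalized counts (median 608) and in male SIRT6-tg mice from 357 to 513 (median 369). Of the SIRT6-tg males, 6 of 7 lay below every WT male. The log2 fold change was -0.66 ± 0.15 (SE), a fall of 36.6% with an adjusted p of 0.00162, and the call held in all 28 fits that left out 1 library (-0.74 to -0.56) and under all 8 other settings (-0.95 to -0.64). Female WT mice ran from 403 to 754 (median 557) and female SIRT6-tg mice from 408 to 738 (median 538), and these overlapped fully. The female change was -0.05 (95% CI -0.35 to 0.25). The difference between the sexes was -0.60 ± 0.21, with an adjusted p of 0.0928 by edgeR, 0.044 by DESeq2 and 0.00783 with library size alone.

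Bst1, also known as CD157, is the ADP-ribosyl cyclase next to Cd38 on chromosome 5 (chr5:43818885-43843986 beside chr5:43868553-43912375, GRCm38). Male WT mice ran from 16.0 to 48.1 normalized counts (median 26.6) and male SIRT6-tg mice from 1.09 to 9.96 (median 7.74). The groups did not overlap, which was so for 6.98% of all genes tested in males. The log2 fold change was -2.01 ± 0.31 (SE), 4.02-fold lower, with an adjusted p of 1.8e-05, and it stayed between -2.13 and -1.83 when any 1 library was left out. Female WT mice ran from 10.7 to 21.2 (median 14.4) and female SIRT6-tg mice from 2.02 to 14.4 (median 8.85). In this sex 5 of 7 SIRT6-tg mice lay below every WT mouse, and the change of -0.84 (95% CI -1.49 to -0.20, unadjusted p = 0.0122) had an adjusted p of 0.636. The difference between the sexes was -1.17 ± 0.45 (adjusted p = 0.14), and Bst1 shares 98 exon bases with Fbxl5 on the opposite strand, whose own log2 fold change in males was 0.04.

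Both genes are known from immune cells, and immune markers were lower in the same male mice. In males all 5 T cell markers fell (summed level 3.04 to 9.58 RPKM in WT and 1.02 to 1.47 in SIRT6-tg mice), and so did all 6 macrophage and Kupffer cell markers (82.6 to 245 against 76.7 to 128). Lower calls were also made for 3 of 4 dendritic cell markers (1.70 to 3.87 against 0.365 to 0.814 RPKM), 3 of 4 B cell markers (3.49 to 6.11 against 2.13 to 3.94) and 2 of 4 NK cell markers (2.63 to 19.7 against 0.559 to 1.90). None of the 5 neutrophil markers tested was called by edgeR or by DESeq2, or at an unadjusted p under 0.05 by edgeR, and 1 further neutrophil marker that was not tested was at 0 in every male SIRT6-tg library. Stellate cell markers fell in 3 of 4 cases (28.8 to 45.1 against 28.7 to 38.9 RPKM), endothelial markers in 1 of 4 (32.0 to 60.9 against 32.0 to 45.0), and cholangiocyte markers in none of 4 by edgeR or DESeq2 (1 at an unadjusted p under 0.05, 2.27 to 5.57 against 1.82 to 4.14). The median of the summed endothelial level was 35.4 RPKM in male WT and 35.8 in male SIRT6-tg mice. Of the hepatocyte markers 1 of 5, Alb, rose (all 5 summed, 42790 to 57125 against 52674 to 75181 RPKM). The part of these lists in the Cd38 and Bst1 results was not tested, and in bulk liver fewer cells of a type and less RNA per cell cannot be told apart.

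In females none of these markers was called by edgeR, although 3 of the 5 T cell markers were below 0.05 unadjusted (median log2 fold change of the 5, -0.59), as was 1 each of the dendritic cell, endothelial and cholangiocyte markers. The female summed T cell level ran from 1.03 to 3.80 RPKM in WT and from 1.17 to 2.33 in SIRT6-tg mice. In WT mice all 5 T cell markers were higher in males than in females, with a median log2 difference of 1.29. So were 2 of 4 NK cell markers, 2 of 4 dendritic cell markers and 6.65% of all genes tested. None of the 4 B cell, 6 macrophage and Kupffer cell and 5 neutrophil markers tested was called in that comparison. Bst1 was higher in WT males by 0.83 on the log2 scale (edgeR adjusted p = 0.0509), whereas Cd38 differed by 0.09 (0.761). Between the female genotypes Bst1 changed by -0.84 and Cd38 by -0.05, and neither was called.

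**Figure D3:**
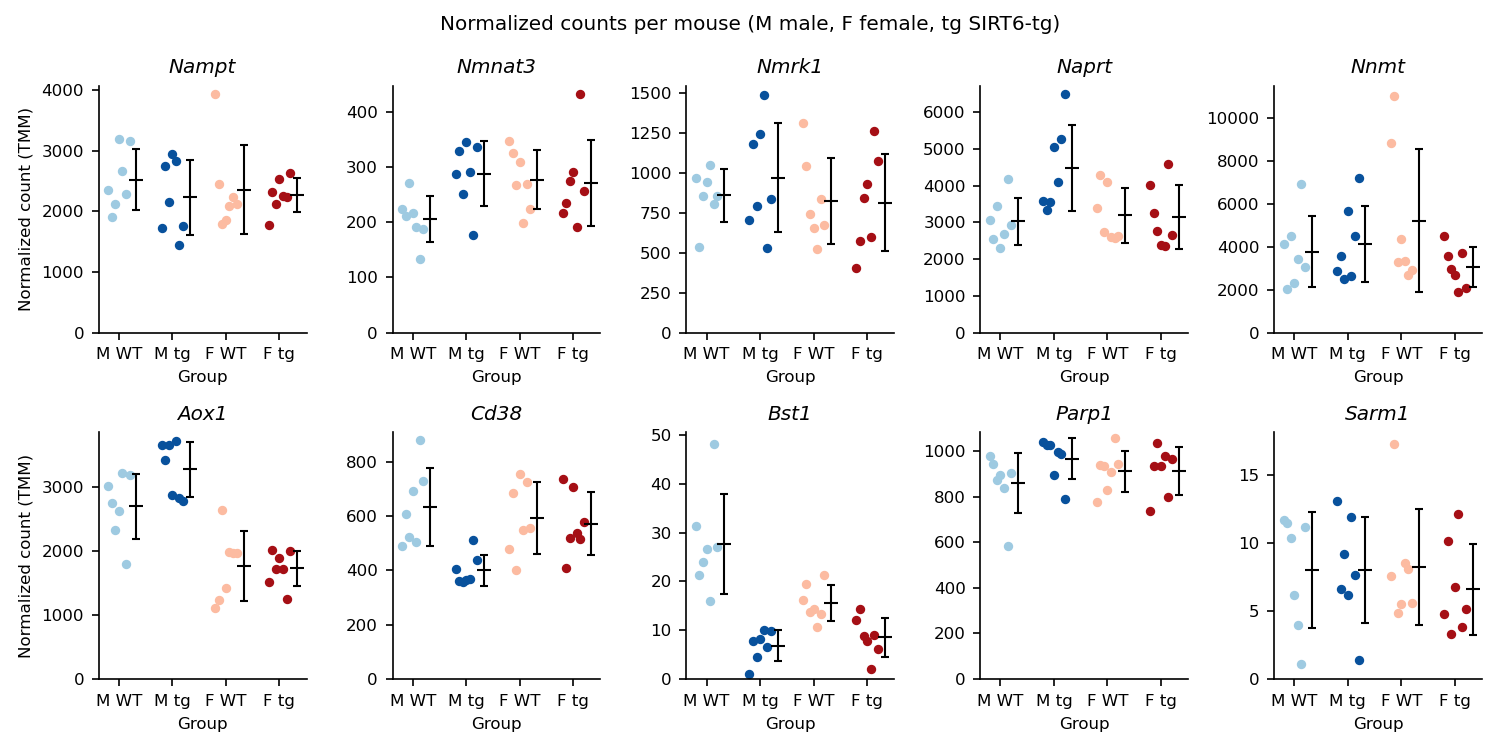
Normalized count of each gene in every mouse by group, on a linear axis from 0 for each gene; points are mice and the bar is the mean with its SD (n = 7). The male WT and male SIRT6-tg points of Bst1 do not overlap, 6 of 7 male SIRT6-tg points of Cd38 lie below all male WT points, and the Aox1 points of SIRT6-tg males lie above all females.

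Parp1, the DNA damage sensor that consumes NAD+ to build poly-ADP-ribose, was the least variable of the 10 genes in each group (coefficient of variation 9.43 to 15.1%). Counts ran from 584 to 980 (median 897) in male WT and from 792 to 1042 (median 997) in male SIRT6-tg mice. Among SIRT6-tg males 5 of 7 exceeded all WT males, yet the change of 0.17 (95% CI -0.03 to 0.37) did not pass (adjusted p = 0.249). Females ran from 775 to 1055 (median 932) in WT and from 736 to 1036 (median 937) in SIRT6-tg mice. Their change was 0.00 (95% CI -0.20 to 0.21), the narrowest interval of the female comparisons among the 10 genes.

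Sarm1 is the NAD+ hydrolase that drives axon degeneration in neurons. It was at 1.12 to 11.7 normalized counts (median 10.4) in male WT and 1.41 to 13.1 (median 7.67) in male SIRT6-tg mice. Females were at 4.87 to 17.3 (median 7.60) in WT and 3.32 to 12.1 (median 5.14) in SIRT6-tg mice. All groups overlapped. The 95% confidence intervals were wide, -0.80 to 0.75 in males and -1.10 to 0.53 in females, so changes within them were not excluded at this depth.

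Aox1 was called between males and females in both genotypes. In WT mice, 2669 genes (12.4%) differed between the sexes, and edgeR called 1 of the 10, Aox1, higher in males by 0.61 ± 0.16 (SE) on the log2 scale (1.53-fold, adjusted p = 0.00753). The log2 difference of Bst1 was larger, at 0.83 ± 0.28, and missed the threshold (adjusted p = 0.0509), but was called with DESeq2 (0.0126), RLE size factors (0.0455), filterByExpr (0.036) and library size alone (0.00962). In SIRT6-tg mice 4988 genes (23.1%) differed, 2787 (12.9%) higher and 2201 (10.2%) lower in males, and 3 of the 10 were called. Aox1 was higher in SIRT6-tg males by 0.92 ± 0.16 (1.89-fold, adjusted p = 7.47e-05), and the male and female SIRT6-tg mice did not overlap, which held for 6.13% of all genes tested. Naprt was higher in SIRT6-tg males by 0.51 ± 0.17 (adjusted p = 0.0314) and Cd38 lower by 0.51 ± 0.15 (adjusted p = 0.0127). The Naprt call was lost with upper-quartile scaling (adjusted p = 0.0777), with library size alone (0.0591) and without any 1 of male SIRT6-tg mice 4, 6 and 7 or female SIRT6-tg mice 3, 4, 5 and 7 (adjusted p up to 0.089), whereas both Aox1 calls and the Cd38 call held in all 28 fits without 1 library. The sex comparisons share their libraries with the genotype comparisons, and the difference between the 2 Aox1 values, 0.31 ± 0.22, was not called (adjusted p = 0.485). Sirt6 was higher in SIRT6-tg males than in SIRT6-tg females by 3.22 ± 0.25, so sex and the Sirt6 level cannot be told apart within this genotype.

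The other genes of NAD+ metabolism were read from a list of 51, of which 46 were tested. In males 14 were higher, 8 were lower and 24 were not called, with a median log2 fold change of 0.08. Over all genes tested in males, 9.68% were higher and 11.0% lower. By role, higher calls were made for 2 of 4 genes of NMN and NAD+ synthesis (Nmnat1 0.33, Nadsyn1 0.32), 5 of 7 of de novo synthesis from tryptophan and 4 of 6 sirtuins other than Sirt6, which with library size alone became 0, 1 and 0. The enzyme 3-hydroxyanthranilate dioxygenase, Haao, had the smallest adjusted p among the higher ones. It ran from 8250 to 12941 normalized counts (median 9900) in male WT and from 13299 to 16548 (median 15293) in SIRT6-tg males. The change was 0.59 ± 0.10 on the log2 scale (adjusted p = 5.21e-05). These groups did not overlap, which was so for 6.98% of all genes tested in males. Haao was named for its adjusted p in this same comparison, so the lack of overlap is not separate evidence. The mitochondrial deacylase Sirt3 rose by 0.35 ± 0.08 (adjusted p = 0.00148). With library size as the only scaling the higher calls shrank to 1 of the 46 and the lower calls rose to 15, and with upper-quartile scaling they were 7 and 8.

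Among the 17 ADP-ribosyltransferases tested, 8 were lower and 1 was higher in SIRT6-tg males, against 11.0% lower and 9.68% higher over all genes tested. Parp11, Parp8, Parp14 and Parp12, mono-ADP-ribosylating members of the Parp1 family, changed by -0.97 ± 0.13, -1.13 ± 0.18, -0.89 ± 0.17 and -0.52 ± 0.11. None of these 4 overlapped between the male groups, which was so for 6.98% of all genes tested in males. They were named for their small adjusted p in this same comparison, so the lack of overlap is not separate evidence. Art2b, a T cell surface ADP-ribosyltransferase, changed by -2.16 ± 0.36 from 17.3 to 57.2 normalized counts in WT to 5.46 to 12.9 in SIRT6-tg males, and Art4 by -0.95 ± 0.22. At least 7 of these transferases were lower under each of the 8 other settings, 12 of them with library size alone. These transferases were lower in the same males as the immune markers above, and the part of those markers was not tested.

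In females none of the 46 was called by edgeR, and 4 were below 0.05 unadjusted, as were 1212 of all 21583 genes tested. The edgeR interaction test called 5 of the 46, against 5.05% of all genes tested (1.2% higher and 3.84% lower). The genotype effect was higher in males than in females for Haao (0.58 ± 0.14, adjusted p = 0.0118). The effect was lower in males for Parp11 (-0.96 ± 0.19, adjusted p = 0.00255) and Art2b (-2.40 ± 0.48, 0.00274). The same held for Parp8 (-0.94 ± 0.25, 0.0239) and Parp14 (-0.90 ± 0.24, 0.0247). These values compare genotype effects, not levels, between the sexes. Among females, Haao was at a median of 10242 normalized counts in WT and 10352 in SIRT6-tg mice.

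**Figure D4:**
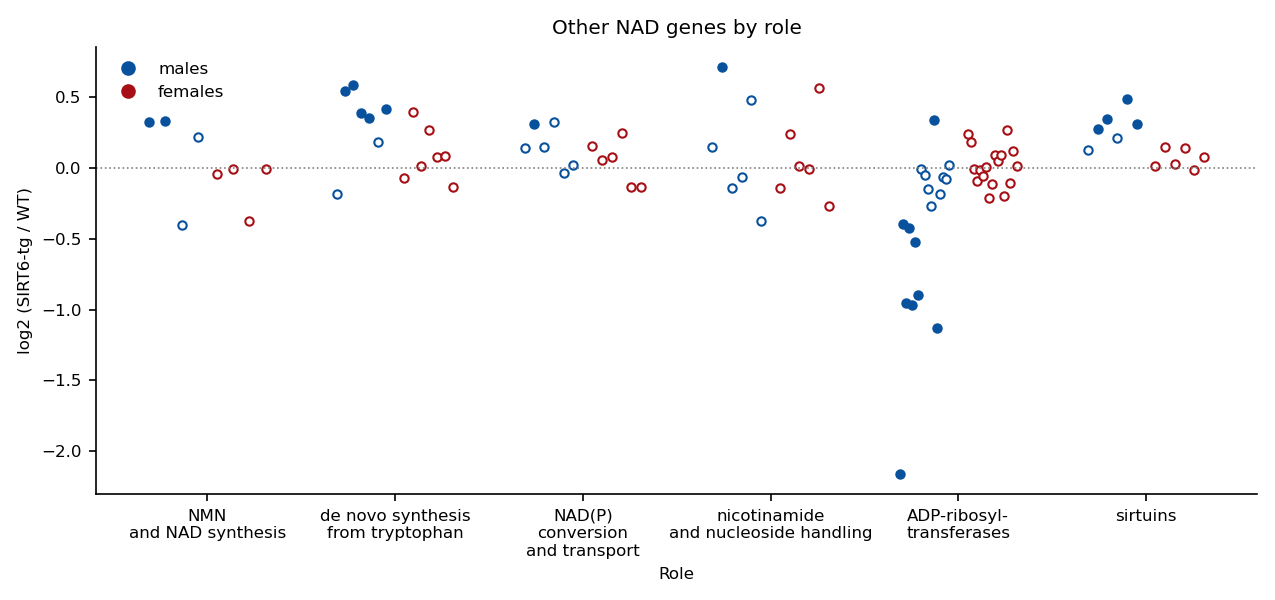
Log2 fold change, SIRT6-tg over WT, of the 46 other NAD+ genes tested, grouped by role, males in blue and females in red; filled points passed an adjusted p under 0.05. In males 14 points are filled above 0 and 8 below it, the latter all among the ADP-ribosyltransferases, and no female point is filled.

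Within groups, some of the genes varied together, and others in opposite directions, from mouse to mouse. After each group's mean was removed, log2-scaled counts (CPM) of Naprt and Nnmt correlated at r = 0.823 over the 28 libraries (Spearman's rho 0.79), and those of Nampt and Nmrk1 at r = 0.755 (rho 0.764). Opposite pairs were of about the same size, with r = -0.746 for Nnmt and Aox1, -0.717 for Naprt and Aox1, -0.703 for Naprt and Parp1 and -0.657 for Nnmt and Parp1. These are descriptions, since the 2 values of a library share its depth and scaling. Of all genes tested, the closest in pattern were Sil1, Cltb and Prkcsh to Naprt (r = 0.955, 0.949 and 0.947), Gstcd to Aox1 (0.92), Rcn1 to Cd38 (0.884), Acp6 to Nmnat3 (0.816) and Slpi to Bst1 (0.76). Being the highest over all genes tested, these values are large in part by selection. For Bst1, which had few reads, r with Slpi was 0.674 without the 2 libraries farthest from its median.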

How the data were processed

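Liver RNA of 28 mice (7 per group, by sex and genotype in the labels) had been sequenced as single-end reads, and the deposited values are read counts per gene. The authors aligned to mm10 with STAR 2.5.0a, using the Gencode vM12 annotation, and counted uniquely mapped reads with HTSeq-count; the strand setting is not given in the sources used here. Symbols and exon lengths came from Gencode vM21 (49326 of 49585 identifiers matched, 43749 with the same version).

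Counts were tested with edgeR 4.0.16 in R 4.3.3 (quasi-likelihood, robust, TMM, 4 groups in 1 fit) over the 21583 genes with a mean of at least 0.5 counts after size factors, with Benjamini-Hochberg adjustment over all of them and a threshold of 0.05; DESeq2 1.42.0 was an alternative. Normalized counts are counts scaled to the mean TMM-adjusted library size, and RPKM uses exon length and that library size. The fit was tested on simulated data. Each mouse is 1 library. All 84 pairs of libraries within a group differed beyond sampling noise, and pairs across groups were not compared in this way. The 10 genes, the NAD+ and marker lists and the naming rule (the 10 genes in full, up to 8 other NAD+ genes by adjusted p in males and up to 4 for the female or sex difference tests, and the 3 genes most like each called gene, with counts per role also naming a few more) were chosen with earlier results of these data known. Alternatives were other scalings, filters, DESeq2, separate fits by sex, a replicate block and leaving out each library. Pnp and Art2a of the lists were not analysed here.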

Additional observations from a re-analysis of the deposited data

Results flagged for a closer look

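The 10 genes were checked in each of the 4 groups for a mouse far from the other 6 (a gap to its nearest neighbour, as a share of the group's range, above Dixon's 95% critical value), which chance gives in about 1 of 20 groups; 4 of 40 were found. Nampt in female WT mouse 1 stood at 3945 normalized counts against 2459 for the next mouse. Nmnat3 in female SIRT6-tg mouse 6 stood at 432 against 291. Parp1 in male WT mouse 6 was low, at 584 against 837. Sarm1 in female WT mouse 2 stood at 17.3 against 8.57. Between the genotypes of the sex concerned, none of Nampt, Nmnat3 and Sarm1 (females) or Parp1 (males) was called. No gene of the 10 was called by edgeR for a difference between males and females in its response to the genotype, whereas DESeq2 called Cd38 (adjusted p = 0.044), and library size alone called Cd38 (0.00783) and Bst1 (0.0346).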

How the results depend on the processing

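The calls of Cd38 and Bst1 in males and of Aox1 between the sexes held under every alternative run. The male count of 4 called genes became 2 with upper-quartile scaling, and 2 to 4 when any 1 library was left out, 2 without male WT mouse 2, male WT mouse 4 or male SIRT6-tg mouse 7. The test of the difference between the sexes called 2 of the 10 genes (Cd38 and Bst1) and 1863 genes in all with library size alone, and 1 of the 10 with DESeq2. Between WT males and females, 2 of the 10 were called with RLE size factors, with library size alone (4212 genes in all), with filterByExpr and with DESeq2, and 1 to 2 when any 1 library was left out; the second was Bst1, with adjusted p between 0.00962 and 0.0712 over the 7 other settings. Over all genes in females, DESeq2 called 44, separate fits by sex 2, and fits without 1 library 3 to 16 (10 without female WT mouse 1 or 4, 14 and 16 without female SIRT6-tg mouse 7 or 2, 3 without female SIRT6-tg mouse 3 or 4). Leaving out 1 library gave 2 to 3 called genes between SIRT6-tg males and females. The cause of these shifts was not tested. Of 1770 values of single genes under an alternative, 1721 kept their direction or stayed uncalled, 30 lost a call and 19 gained one. Other scalings moved the share of higher calls: with library size alone 86.8% of the genes called between WT males and females were higher in males against 53.8% with TMM, and with upper-quartile scaling 39.2% against 55.9% in SIRT6-tg mice. The replicate numbers did not pair the mice (correlations of deviations between same-numbered mice -0.345 to 0.328, median 0.0353; 4 of 28 libraries correlated best with their own number), and with the replicate block 4 of the 10 genes were called in males, 4209 genes in all, and 0 of the 10 in females. Genes with few reads, Bst1 and Sarm1, are limited by depth.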
